A study of Mus musculus with 6 samples.

Results

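The transcripts of 10 genes, 9 Toll-like receptors (Tlr1, Tlr2, Tlr3, Tlr4, Tlr6, Tlr7, Tlr8, Tlr9 and Tlr13) and the receptor chaperone Unc93b1, were mapped over the immune cells of CT26 tumors. They were taken by name from the 20649 genes of the raw count matrix, and all 10 were measured. CT26 is a colon carcinoma line of BALB/c mice, and 500000 of its cells were injected under the skin. The tumors then received 3 injections, one every other day, of engineered exosomes loaded with an antisense oligonucleotide (ASO). The oligonucleotide was directed against Stat6 mRNA (exoASO-STAT6, 3 samples) or was a control of scrambled sequence (exoASO-Scramble, 3 samples). Tumors were collected 24 h after the last dose, dissociated and enriched for cells bearing CD45, a surface protein of white blood cells, and the transcripts of single cells were counted by 3′ end sequencing. The ASOs carried cholesterol, locked nucleic acid ends and a phosphorothioate backbone, and both groups received exosomes and an ASO, so no untreated sample was compared. The 9235 barcodes, each standing for a droplet with a captured cell, fell into 6 libraries marked by the numbers 3 to 8 at the end of each barcode. No label tied a number to a treatment. The libraries therefore entered as 1 pooled collection of unknown treatment, the treatments were not compared and no test between them could be run.

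Toll-like receptors recognize molecular patterns of microbes and of damaged cells. TLR1, TLR2, TLR4 and TLR6 work at the cell surface and bind lipids and lipoproteins, whereas TLR3, TLR7, TLR8, TLR9 and TLR13 work in endosomes and bind nucleic acids. UNC93B1 is a membrane protein of the endoplasmic reticulum that escorts the endosomal receptors to their compartment, and without it they do not signal. Endosomal receptors can meet oligonucleotides that a cell takes up, and chemically modified oligonucleotides are known to engage or block several of them.

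The surface receptor genes Tlr1 and Tlr6 arose from a duplication and lie next to each other on the minus strand of chromosome 5, and both of their proteins pair with TLR2. In the GENCODE M21 annotation of GRCm38, Tlr1 lies at chr5:64924679-64933563 and Tlr6 at chr5:64952031-64960097. The sequence before the RefSeq start of each is shown because these neighbors encode alternative partners of the same receptor, whose levels are set side by side below. Bases in annotated exons were left out. Both are written 5′ to 3′ along the minus strand of GRCm38.p6, the first from chr5:64933564-64933808 and the second from chr5:64959167-64959416, which lies inside the Tlr6 gene model but outside its exons.
Tlr1: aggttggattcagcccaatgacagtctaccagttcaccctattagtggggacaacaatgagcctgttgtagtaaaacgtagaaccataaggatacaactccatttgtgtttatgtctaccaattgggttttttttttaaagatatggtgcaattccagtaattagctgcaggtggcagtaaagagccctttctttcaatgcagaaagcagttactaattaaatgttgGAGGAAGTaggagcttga
Tlr6: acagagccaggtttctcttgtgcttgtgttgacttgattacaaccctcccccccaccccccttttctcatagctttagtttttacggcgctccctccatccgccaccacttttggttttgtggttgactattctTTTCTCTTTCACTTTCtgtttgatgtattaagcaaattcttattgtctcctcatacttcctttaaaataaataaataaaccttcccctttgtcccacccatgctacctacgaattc
Capitals mark matches to either of 2 strings searched on both strands. The Tlr1 window holds GAGGAAGT, a core recognized by the myeloid factor PU.1, 23 bases before the start. This string occurred in 2.44% of 32851 RefSeq promoter windows of 250 bases. The Tlr6 window holds 2 overlapping matches on the opposite strand to GAAA, 2 bases of any kind and GAAA again, the core of an interferon-stimulated response element, 116 and 110 bases before the start. That string occurred in 2.98% of the windows. The windows of Tlr8 and Tlr9 held neither string. A promoter entry was found for 7 of the 10 genes, and 4 of these had a window of at least 240 bases free of annotated exons. A match is a description of letters and not a measured binding site.

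The other genes lie on 6 chromosomes. Tlr7 (chrX:167304929-167330558) and Tlr8 (chrX:167242696-167264329) are neighbors on the minus strand of the X chromosome, which also holds Tlr13 (chrX:106143204-106160493). Tlr2 lies at chr3:83836272-83841767, Tlr4 at chr4:66827584-66930284, Tlr9 at chr9:106222598-106226883 and Unc93b1 at chr19:3935186-3949340. Tlr3 (chr8:45395665-45411080) is the only one of the 10 that overlaps another annotated gene, sharing 381 exon bases with the antisense gene Gm45542.

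Barcodes were assigned by transcript counts (UMIs, molecules counted once by their identifiers). Macrophage barcodes held at least 3 UMIs of Csf1r plus Adgre1 and none of Cd3e or Ncr1, and met no other rule. They were split into an Rsad2 state (at least 3 UMIs of this interferon-induced gene, 882 barcodes), a Ly6c2 state (417), a C1qa state (1955) and the rest (704). Barcodes with less Csf1r and Adgre1 formed an S100a9 class (at least 5 UMIs, 114 barcodes), a plasmacytoid dendritic class (pDC; Siglech at least 2, 54), a type 1 dendritic class (Xcr1 plus Clec9a at least 2, 38) and a B class (Cd79a at least 2, 37). T barcodes (280) and NK barcodes (257) without Csf1r and Adgre1 served as a gauge of free RNA. It is a low gauge, because barcodes with these 2 transcripts were left out of it. These 10 classes held 4738 barcodes (51.3% of all), and 1797 barcodes with T or NK transcripts beside macrophage transcripts were in no class. The median was 11846 UMIs per barcode, libraries held 11492757 to 33902084 UMIs, and 16 barcode sequences occurred in 2 libraries. The 10 genes had 108242 UMIs in all.

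The markers listed for each cell type were then checked. In the pDC class all 7 listed markers of plasmacytoid dendritic cells were found, summing to 9419 counts per 1000000 UMIs (CPM) against 331 in macrophages. In the type 1 dendritic class 6 of 6 markers were found (3682 CPM). The pDC class had 3296 CPM of the same markers, so the sum did not tell the classes apart. Irf8, the highest in both, was higher in pDC (3020 against 1910 CPM) and the intervals of Flt3 overlapped (161 and 171). The other 4 were higher in type 1 dendritic barcodes, namely Wdfy4 (665 against 39.0 CPM), Cd24a (655 against 73.2), Itgae (191 against 2.44) and Batf3 (91.2 against 0). In the B class 6 of 6 markers were found (3468 CPM). The Ly6c2 state held 5496 CPM of 5 monocyte markers against 718 in the C1qa state, and pDC held 5313, of which Plac8 was the most. The rule named the S100a9 class as neutrophils, and its data went partly against that name. Its 6 neutrophil markers summed to 5280 CPM against 140 in macrophages, and the 7 listed macrophage markers to 3914 CPM against 8873 in macrophages and 11066 in the C1qa state. Of these 7, Cd68 and Fcgr1, chosen after their values were seen, stood at 601 and 427 CPM against 620 and 364 in the C1qa state. It is called the S100a9 class here.

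Of the 10 genes, 3 (Tlr1, Tlr2 and Tlr8) had their highest summed level in a macrophage state. Of the 9928 genes with at least 500 UMIs, which include all of the 10 but Tlr9, 21.6% did. Tlr7 and Unc93b1 were highest in pDC (22.6% of genes), Tlr3 in type 1 dendritic barcodes (9.88%), Tlr4, Tlr6 and Tlr13 in the S100a9 class (8.78%), and Tlr9 in B barcodes (13.3%) on a single UMI. In 9 of 10, all but Tlr9, the counting interval in the leading class lay above that in T and NK barcodes, as in 48.6% of all genes. This gauge may understate free RNA in other classes, where it was not measured. The 7 listed macrophage markers summed to 329 CPM in T and 259 in NK barcodes. In pDC they summed to 1837, in type 1 dendritic barcodes to 709 and in B barcodes to 667. Tlr3, Tlr4 and Tlr7 led in the same class in each library with at least 10 barcodes and 100000 UMIs of that class, which were 1, 3 and 1 libraries, respectively. Intervals are exact, at the 95% level, and cover counting error only, so they do not contain the spread between animals.

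**Figure D1:**
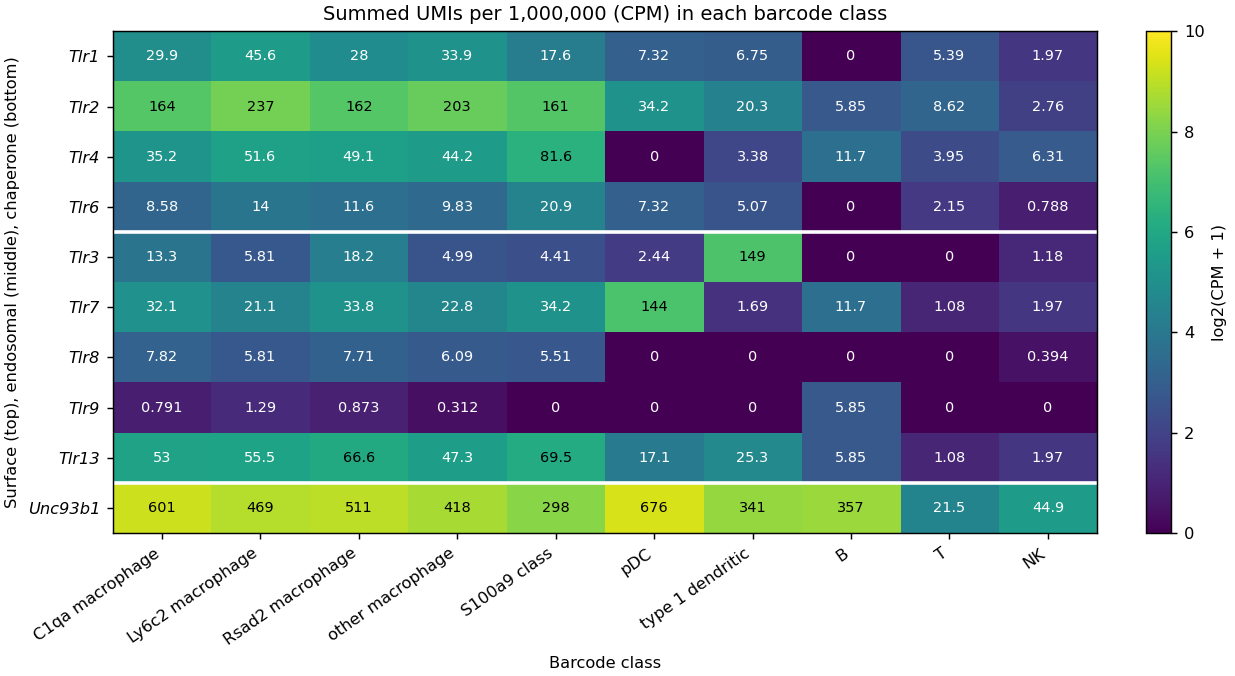
Level of each gene (rows) in each barcode class (columns), as summed UMIs per 1000000 UMIs of the class; colors show log2(CPM + 1) and each cell prints the CPM. Tlr7 stands out in pDC (144), Tlr3 in type 1 dendritic barcodes (149), and both are low in T and NK barcodes.

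Tlr7, the endosomal sensor of single-stranded RNA, was highest in pDC. Its UMIs in pDC were 3, 16, 13, 15, 3 and 9 in libraries 3 to 8, from 5, 11, 14, 7, 5 and 12 barcodes. As levels these were 124, 193, 147, 269, 81.2 and 74.0 CPM. Every library lay above its own macrophages, whose levels ran from 26.4 to 33.2 CPM, so the 2 sets did not overlap. Over all libraries the level was 144 CPM (interval 110 to 186), which was 4.21-fold (2.68 to 6.73) the S100a9 class, next in order at 34.2 CPM. A lead of at least 2-fold in pDC was found for 3.85% of genes. The Rsad2 state (33.8 CPM), the C1qa state (32.1) and the S100a9 class had overlapping intervals. The Ly6c2 state, at 21.1 CPM (17.1 to 25.7), was below the first 2 of these, while its interval overlapped that of the S100a9 class (23.2 to 48.5). Type 1 dendritic barcodes held 1 Tlr7 UMI, or 1.69 CPM (0.0427 to 9.41), an interval that includes the 1.5 CPM of T and NK barcodes. When each barcode was thinned to 3000 UMIs, Tlr7 was seen in 25.5% of 51 pDC barcodes (14.3 to 39.6%; median depth 6964 UMIs before thinning) and in 0.216% of 464 lymphocyte barcodes (median 8996). Without thinning, 32 of 54 pDC barcodes (59.3%) held it.

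Tlr3, the endosomal sensor of double-stranded RNA, was highest in the type 1 dendritic class. The UMIs there were 18, 8, 42, 2, 3 and 15 in libraries 3 to 8, from 5, 5, 13, 5, 3 and 7 barcodes. The matching levels were 197, 107, 214, 28.4, 43.6 and 166 CPM, and the macrophages of the same libraries had 10.9 to 14.1. Each library was above its macrophages, although libraries 6 and 7 rested on 2 and 3 UMIs. The summed level was 149 CPM (119 to 183), 8.17-fold (6.33 to 10.5) the Rsad2 state at 18.2 CPM, and 1.2% of genes led in this class by at least 2-fold. One barcode gave 15 of the 88 UMIs, and without library 5 the level was 116 CPM. The C1qa state followed at 13.3 CPM, then the Ly6c2 state at 5.81, the remaining macrophages at 4.99 and the S100a9 class at 4.41, and the intervals of these last 3 overlapped. The pDC class held 1 UMI and T barcodes none. After thinning, 27.8% of 36 type 1 dendritic barcodes showed Tlr3 (14.2 to 45.2%; median depth 14551 UMIs) against 0.216% of lymphocytes, and without thinning 23 of 38 did (60.5%).

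**Figure D2:**
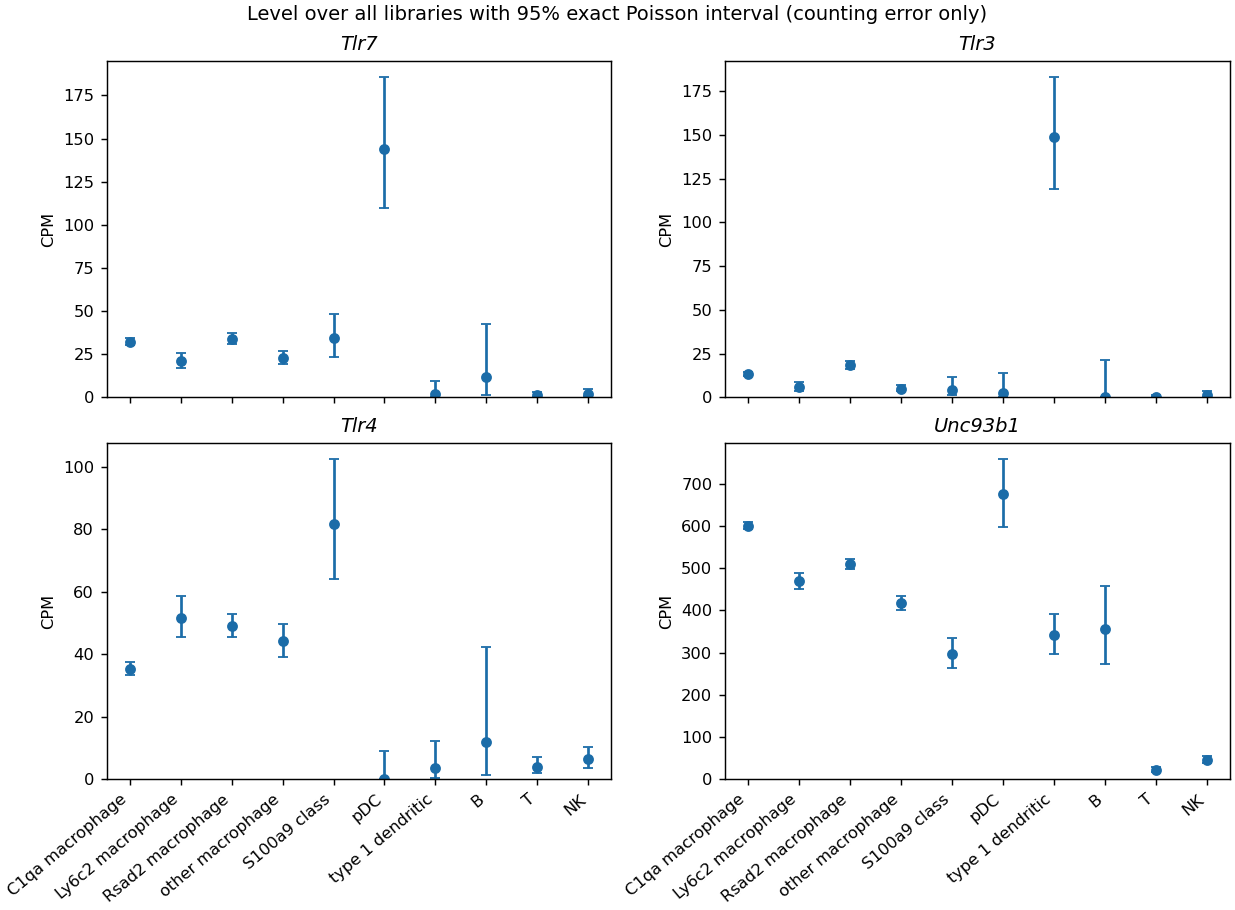
Levels of Tlr7, Tlr3, Tlr4 and Unc93b1 (CPM, linear axis from 0) in the 10 barcode classes over all libraries; points are summed levels and bars the exact Poisson interval. Tlr7 and Tlr3 each have 1 class far above the rest, Tlr4 is highest in the S100a9 class and Unc93b1 is spread over all myeloid, dendritic and B classes.

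Tlr9, the endosomal sensor of unmethylated CpG DNA, was nearly unseen. Only 78 UMIs were counted in the whole matrix, of which 46 were in macrophages (0.797 CPM, 0.584 to 1.06). In pDC, the cell type best known for this receptor, 0 UMIs were found, which allows a level of up to 7.32 CPM. The B class, which held 170971 UMIs in all, gave 1 Tlr9 UMI, and no order of classes can be read from these counts. Type 1 dendritic barcodes and the S100a9 class also held 0, which allows up to 5.07 and 3.31 CPM, respectively. The level of Tlr9 in pDC was not measurable at this depth.

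Tlr8, the neighbor of Tlr7 on the X chromosome, was low and highest in macrophage states. It had 7.82 CPM in the C1qa state (6.89 to 8.83), 7.71 in the Rsad2 state (6.31 to 9.33) and 5.81 in the Ly6c2 state (3.83 to 8.45), which were not distinguishable. No Tlr8 UMI was found in pDC (up to 7.32 CPM) or type 1 dendritic barcodes (up to 5.07 CPM), limits close to the macrophage level itself. T and NK barcodes held 1 UMI (0.188 CPM).

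Tlr13, the mouse sensor of bacterial ribosomal RNA, was shared by the myeloid classes. The S100a9 class had 69.5 CPM (53.4 to 88.9), the Rsad2 state 66.6 (62.4 to 71.1), the Ly6c2 state 55.5 (48.9 to 62.7) and the C1qa state 53.0 (50.6 to 55.6). The ratio of the first to the second, 1.04 (0.794 to 1.35), does not separate them. In libraries 6, 7 and 8, which had at least 10 barcodes of the S100a9 class, its levels were 89.0, 79.3 and 38.6 CPM, the last being below the macrophages of that library (57.0). Type 1 dendritic barcodes had 25.3 CPM, pDC 17.1 and lymphocytes 1.5.

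Unc93b1 was found wherever an endosomal receptor was, and beyond. In pDC its levels were 577, 844, 746, 592, 677 and 567 CPM in libraries 3 to 8, against 554, 593, 467, 472, 604 and 561 in the macrophages of those libraries. Within each library pDC were thus higher, by a small margin in libraries 3 and 8. The summed levels were 676 CPM in pDC (598 to 760) and 601 in the C1qa state (592 to 609), with a ratio of 1.13 (0.996 to 1.27) whose interval includes equality. The Rsad2 state (511), the Ly6c2 state (469) and the remaining macrophages (418) followed, then B (357; 273 to 458), type 1 dendritic (341; 296 to 392) and S100a9 (298; 263 to 335) barcodes. The intervals of these last 3 overlapped. T and NK barcodes had 21.5 and 44.9 CPM. In B barcodes, where 4 UMIs of endosomal receptors were counted, the chaperone stood at 61 UMIs from all 6 libraries. At 3000 UMIs it was seen in 79.5% of C1qa barcodes, 74.5% of pDC, 72.2% of type 1 dendritic and 80.0% of 20 B barcodes, but in 50.5% of the S100a9 class and 8.41% of lymphocytes.

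Among the surface receptors, Tlr4, which with its partner MD-2 senses bacterial lipopolysaccharide, led in the S100a9 class. Its levels there in libraries 3 to 8 were 87.7, 34.8, 139, 86.2, 95.2 and 66.6 CPM. Those of libraries 3, 4 and 5 rested on 3, 1 and 3 UMIs. The macrophages of the same libraries had 37.8, 34.3, 47.2, 58.5, 37.8 and 35.5 CPM, so all 6 were higher in the S100a9 class, library 4 by less than 1 CPM. The summed level was 81.6 CPM (64.1 to 102), 1.58-fold (1.2 to 2.06) that of the Ly6c2 state at 51.6. The Rsad2 state had 49.1 CPM and the C1qa state 35.2 (33.2 to 37.3). No Tlr4 UMI was found in pDC, which allows up to 7.32 CPM, and 2 UMIs were found in type 1 dendritic barcodes. After thinning it was seen in 22.8% of the S100a9 class (15.0 to 32.2%) and in 1.72% of lymphocytes. When classes could overlap, Tlr4 was highest in the Ly6c2 state instead.

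Tlr2, whose protein binds bacterial lipopeptides, and its partner Tlr1 had their highest summed level in the Ly6c2 state, and the partner Tlr6 was low throughout. Tlr2 stood at 237 CPM in the Ly6c2 state (223 to 251), 203 in the remaining macrophages, 164 in the C1qa state, 162 in the Rsad2 state and 161 in the S100a9 class. The last 3 had overlapping intervals. The Ly6c2 state led in 4 of 6 libraries. Tlr2 was 34.2 CPM in pDC, where 12 of 14 UMIs came from library 8 and from 4 barcodes there, and 20.3 in type 1 dendritic barcodes. The lymphocyte gauge was 5.83 CPM. At 3000 UMIs Tlr2 was seen in 46.3% of Ly6c2 barcodes and 33.7% of C1qa barcodes against 1.51% of lymphocytes. Tlr1 had 45.6 CPM in the Ly6c2 state (39.7 to 52.2), 1.35-fold (1.11 to 1.63) the remaining macrophages at 33.9, and 17.6 in the S100a9 class. This lead was not general, because the Ly6c2 state led in 2 of 6 libraries. The remaining macrophages were above it in library 3 (19.7 against 11.0 CPM), library 6 (53.3 against 53.1) and library 8 (43.7 against 41.0). Tlr6 had 20.9 CPM in the S100a9 class (12.6 to 32.7) and 14.0 in the Ly6c2 state (10.8 to 17.8), and the ratio of 1.5 (0.848 to 2.53) does not separate them. Against all macrophages the S100a9 class held more Tlr6 (macrophages 9.86 CPM, 9.07 to 10.7) and less Tlr1 (10.1 to 28.6 CPM, against 31.2 in macrophages, 29.7 to 32.6). The Tlr1 interval of the S100a9 class overlapped that of the Rsad2 state (25.3 to 31.0). Tlr6 was above the macrophages of the same library in 5 of 6 libraries, on 1, 1, 0, 8, 2 and 7 UMIs in libraries 3 to 8. The summed levels of the S100a9 class rested on 19 UMIs of Tlr6 and 16 of Tlr1.

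Other barcodes met one of the rules of the rare classes and also held at least 3 UMIs of Csf1r plus Adgre1. There were 58 of pDC, 70 of type 1 dendritic and 541 of S100a9 barcodes of this kind, with median depths of 19180, 25884 and 16412 UMIs against 6915, 14186 and 7482 in the classes above. Tlr7, Tlr3 and Tlr4 each had a level between that of the class they led and that of macrophages. Tlr7 was at 62.4 CPM in the pDC kind, Tlr3 at 49.7 in the type 1 dendritic kind and Tlr4 at 61.0 in the S100a9 kind, where macrophages had 30.6, 13.0 and 40.8. Tlr2 was also in between but higher than in the class, with 151 CPM in the pDC kind against 34.2 in pDC and 174 in macrophages. Not every gene lay in between. Unc93b1 was at 616 CPM in the type 1 dendritic kind against 341 in the class and 548 in macrophages. Tlr13 was at 54.7 CPM in the S100a9 kind, against 69.5 in the class and 55.8 in macrophages. The Tlr13 interval of this kind (50.3 to 59.3) overlapped those of both. The part of cell pairs or free RNA in these barcodes was not tested.

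**Figure D3:**
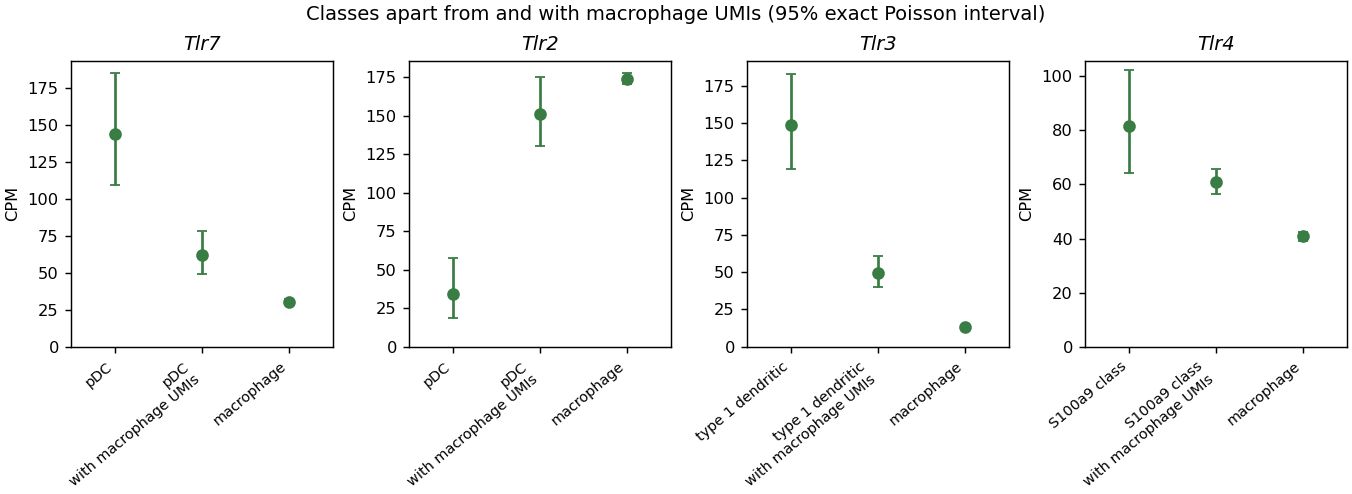
Levels (CPM, linear axes from 0) of 4 receptors in a class, in barcodes of the same rule that also hold at least 3 macrophage UMIs, and in macrophages; bars are exact Poisson intervals. In pDC, Tlr7 is lower (62.4 against 144 CPM) and Tlr2 higher (151 against 34.2 CPM) when macrophage transcripts are present.

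As a share of the UMIs of the 9 receptor genes, the endosomal receptors among them made up 77.0% in pDC (66.8 to 85.4%, 67 of 87 UMIs). Tlr7 alone gave 59 of these 67 UMIs. Tlr5, Tlr11 and Tlr12 were counted in neither part, although pDC held 12 UMIs of Tlr12 and type 1 dendritic barcodes 33 of Tlr11. The pDC share rests on few UMIs per library, and library 8, with 13 of the 20 surface UMIs, had 48.0% (27.8 to 68.7%, 12 of 25). In libraries 4 and 5 it was 85.0% each, 17 of 20, in library 6 all 15 UMIs were endosomal, and without library 8 the share was 88.7% (78.1 to 95.3%). The share in type 1 dendritic barcodes was 83.2% (75.5 to 89.3%, 104 of 125), and 77.4 to 100% in the single libraries. Tlr3 alone gave 88 of these 104 UMIs. Each share thus mostly restates the level of 1 gene and is no trait of the endosomal receptors as a group. Tlr13 was lower in pDC (17.1 CPM) and type 1 dendritic barcodes (25.3) than in macrophages (55.8). Tlr8 and Tlr9 had 0 UMIs in both classes, Tlr3 had 1 in pDC and Tlr7 had 1 in type 1 dendritic barcodes. In macrophages the share was 29.6%, between 28.0 and 32.2% in the 6 libraries, and 29.6% was below the intervals of both summed classes. It lay inside the intervals of pDC in libraries 3, 7 and 8 and of type 1 dendritic barcodes in libraries 6 and 7, which, library 8 aside, rested on 3 to 5 UMIs each. Among the states it was 33.7% in the Rsad2 state, 31.0% in the C1qa state and 20.4% in the Ly6c2 state, and the S100a9 class had 28.8%. These shares compare classes for the same genes. UMIs at the 3′ end do not rank one gene against another. A single pDC or type 1 dendritic barcode rarely showed several of the 9 receptors, since 1.96% and 2.78% of thinned barcodes held 2 or more against 20.9% of macrophages. None of the 9 was seen in 36.7% of thinned macrophages and 94.6% of lymphocytes.

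**Figure D4:**
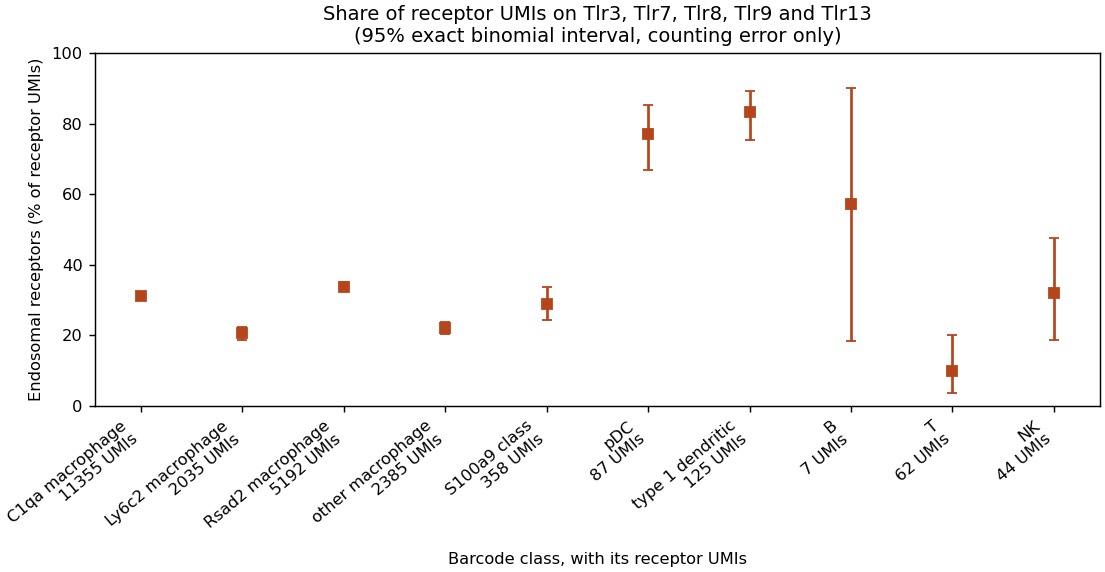
Share of receptor UMIs that belong to Tlr3, Tlr7, Tlr8, Tlr9 and Tlr13 in each barcode class (percent, axis 0 to 100), with exact binomial intervals and the number of receptor UMIs under each class. The pDC and type 1 dendritic classes lie at 77.0% and 83.2%, the macrophage states between 20.4% and 33.7%. Most endosomal UMIs are of Tlr7 in pDC (59 of 67) and of Tlr3 in type 1 dendritic barcodes (88 of 104).

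Within macrophages, the nucleic acid sensors Tlr3 and Tlr7 were higher in the C1qa state than in the Ly6c2 state in 6 of 6 libraries. This was so for 2 of the 10 genes and for 18.5% of the 8945 genes with at least 5 CPM in macrophages, so the count is near the background. None of the 10 was lower in all 6 (11.8% of genes). Tlr3 had 12.3, 13.4, 14.5, 8.21, 11.9 and 15.4 CPM in the C1qa state of libraries 3 to 8, and 5.52, 9.76, 5.78, 4.42, 10.1 and 2.51 in the Ly6c2 state. These Ly6c2 values rest on 1, 3, 3, 6, 11 and 3 UMIs, and the lead of the C1qa state was small in libraries 4 and 7. The summed ratio was 2.30 (1.56 to 3.53). Tlr7 had 26.9, 33.7, 33.5, 28.7, 31.6 and 33.3 CPM against 11.0, 26.0, 17.3, 19.9, 20.2 and 25.1, and all values of the C1qa state were above all of the Ly6c2 state. The closest were 26.9 and 26.0 CPM, and the Ly6c2 values rest on 2, 8, 9, 27, 22 and 30 UMIs. The summed ratio of Tlr7 was 1.52 (1.24 to 1.89). When the class cutoffs were doubled, Tlr3 was higher in 4 and Tlr7 in 5 of 6. This left as few as 6 Ly6c2 barcodes in a library. The exceptions were libraries 4 and 7 for Tlr3, with 8 and 52 Ly6c2 barcodes, and library 4 for Tlr7. With only the state cutoffs doubled, both were higher in 5 of 6, so neither order held in every library.

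The Rsad2 state had more Tlr3 than either other state in every library, with 21.0, 13.4, 32.0, 15.1, 19 and 20.4 CPM. In library 4 the lead over the C1qa state, also at 13.4 CPM, was within counting error. Over all libraries Tlr3 was 1.36-fold (1.16 to 1.59) the C1qa state and 3.13-fold (2.10 to 4.85) the Ly6c2 state. Among all genes, 10.2% were higher in the Rsad2 than the C1qa state in all 6 libraries, and 11.1% higher than in the Ly6c2 state. Tlr3, Tlr7 and Tlr13 had summed levels in the Rsad2 state above both other states (3 of 10, 17.5% of genes). For Tlr7 the ratio to the C1qa state was 1.05 (0.94 to 1.17) and is no difference. For Tlr13 it was 1.26 (1.16 to 1.36), in 4 of 6 libraries, and library 6 had the highest value of 84.6 CPM. Library 6 gave 273 of the 882 Rsad2 barcodes and 99 of the 1955 C1qa barcodes, and without it the log2 ratio of Tlr13 was 0.15 instead of 0.33. In sums over libraries, library and state cannot be told apart.

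Tlr2 had a lower summed level in the Rsad2 and C1qa states than in the Ly6c2 state, and so in part did its partners. The Rsad2 and C1qa states were not separated for Tlr2, with a ratio of 0.984 (0.936 to 1.03) and the Rsad2 state higher in 4 of 6 libraries. Tlr2 was lower in the Rsad2 than in the Ly6c2 state in 6 of 6 libraries (8.57% of genes), with 196, 171, 191, 128, 182 and 169 CPM against 425, 172, 237, 167, 256 and 287. In library 4 the 2 values were nearly equal. The C1qa state was below the Ly6c2 state in 5 of 6 libraries, library 4 being the exception, at a summed ratio of 0.694 (0.650 to 0.741). The Ly6c2 value of library 3, the highest, came from 23 barcodes. Tlr1 in the C1qa state was 0.656 (0.565 to 0.765) of the Ly6c2 state, but lower in 4 of 6 libraries only, since libraries 3 and 4 went the other way. Tlr6 was lower in the C1qa than the Ly6c2 state in 3 of 6 libraries (0.613, 0.467 to 0.816) and higher in the Rsad2 than the C1qa state in 5 of 6 (1.35, 1.10 to 1.64). Tlr4 was lower in the C1qa than the Ly6c2 state in 5 of 6 libraries, with a ratio of 0.682 (0.593 to 0.787), and higher in the Rsad2 than the C1qa state in 5 of 6 (1.39, 1.27 to 1.53). Tlr4 did not separate the Rsad2 from the Ly6c2 state (0.951, 0.820 to 1.11). Unc93b1 was highest in the C1qa state, 1.28-fold (1.22 to 1.34) the Ly6c2 state in 5 of 6 libraries.

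**Figure D5:**
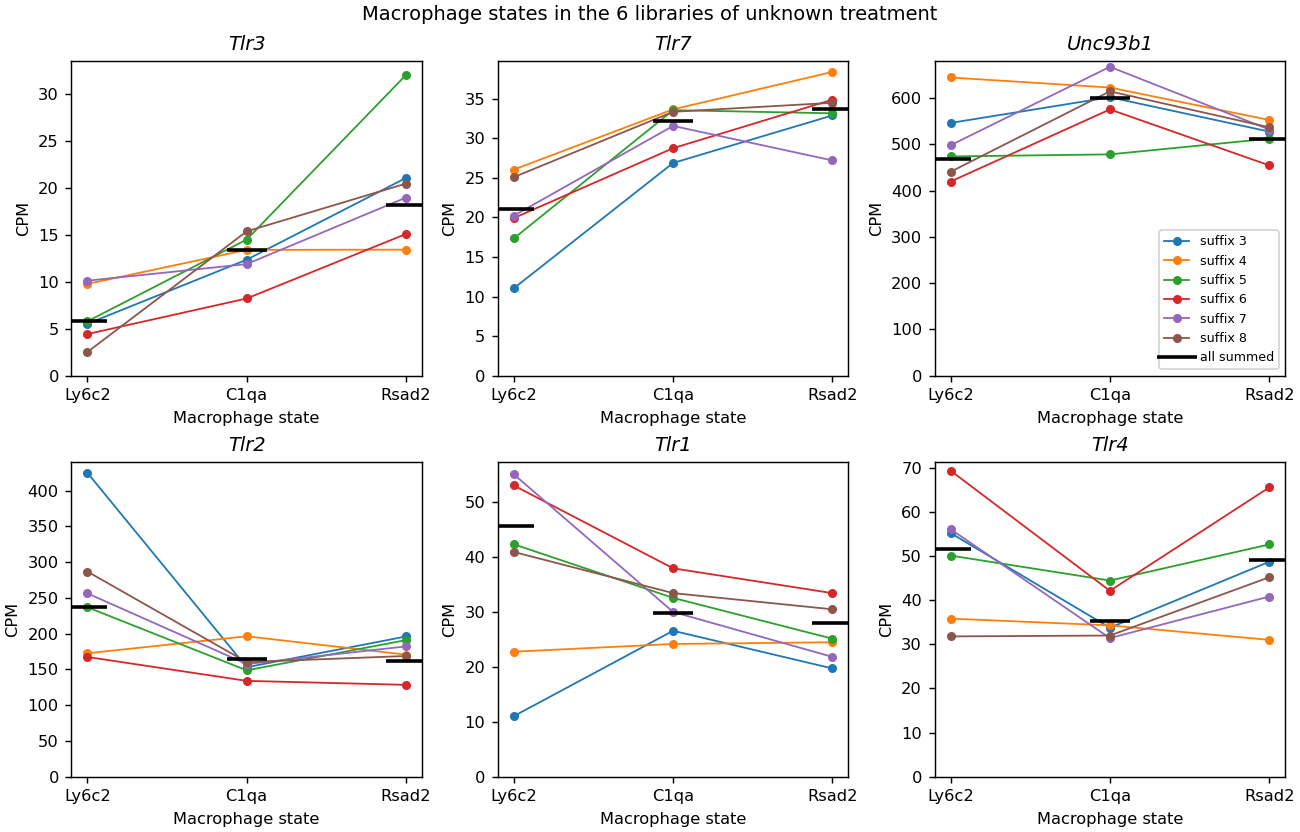
Level (CPM, linear axes from 0) of 6 genes in the Ly6c2, C1qa and Rsad2 macrophage states; each line is 1 of the 6 libraries of unknown treatment and black bars are sums over libraries. Tlr3 and Tlr7 are higher in the C1qa than the Ly6c2 state in every library, while Tlr2 is lower in 5 of 6.

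The genes that act beside the receptors were followed through a list of 41, all measured, sorted by role. Of these, 11 led in pDC and 15 in a macrophage state, against the 22.6% and 21.6% of all genes given above, and 3 led by at least 2-fold (9.77% of genes). In pDC these were Slc15a4, an endolysosomal transporter needed for TLR7 and TLR9 signaling, at 110 CPM (80.1 to 147), and Pld4, an exonuclease of endolysosomes that trims single-stranded nucleic acids, at 934 CPM (843 to 1030). Pld4 was at 342 CPM in the C1qa state and 8.62 or less in T and NK barcodes. Also among the 11 genes highest in pDC were the nucleoside transporter Slc29a3, at 141 CPM, and Hsp90b1, at 1242 CPM. Hsp90b1 encodes the folding chaperone GP96 for most Toll-like receptors. Both led by less than 2-fold over the next class. The third lead was that of Irak2, a signaling kinase, in the S100a9 class (94.8 CPM).

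The list was also compared between the C1qa and the Ly6c2 state, with no test of a difference between roles. Of 10 chaperone and traffic genes, 6 were higher in the C1qa state in 6 of 6 libraries (Hsp90b1, Cnpy4, Lgmn, Ctsb, Ctsl and Ctss) and none lower. Lgmn, Ctsb, Ctsl and Ctss encode lysosomal proteases that cut endosomal receptors into their active form. Lgmn was at 2832 CPM against 1253 and Ctsb at 3341 against 1934. Of the 6 nucleases, 2 were higher in 6 of 6 libraries, Pld3 (107 against 39.8 CPM) and Dnase2a, and none was lower in all. Of 11 adaptors and kinases none was higher and 3 were lower in all libraries (Myd88, Irak2 and Tbk1). Myd88, the adaptor of every Toll-like receptor but TLR3, had 46.7 CPM against 110. The transcription factors Irf5 (122 against 170 CPM) and Irf7 (217 against 462) were lower too, as was Tnfaip3. The co-receptors went both ways, with Ly86 (211 against 143 CPM) and Cd36 (118 against 64.1) higher and Cd14 (944 against 1535) lower. In all, 10 of 41 were higher and 7 lower, where 39 of the 41 reached the 5 CPM on which the 18.5% and 11.8% of all genes were counted, so the whole list was near the background. Other cutoffs were not tried for these genes. The median log2 ratio was 0.20 for the traffic genes and -0.44 for the adaptors, against 0.07 over all 8945 genes.

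Genes with a pattern like each member were sought by Pearson's r of log2(CPM + 1) over the 10 classes, among 9916 genes, as a description without a test, since the classes share libraries and depth. Tlr7 was followed most closely by Hpse (r = 0.988), B3gnt8 (0.981) and 5430427O19Rik (0.979), the last at 82.9 CPM in pDC against 33.7 in the C1qa state. Tlr3 was nearest to Ckb (0.967), at 736 CPM in type 1 dendritic barcodes. Tfe3 was among the 3 nearest genes to Tlr2 (0.988), and Tlr13 was nearest to Sdc3 (0.994), Tlr8 to P2ry2 (0.988) and Unc93b1 to Myo1c (0.988). For the remaining surface receptors these were Rhog for Tlr1 (0.981), Dennd1a for Tlr4 (0.976) and Lilra6 for Tlr6 (0.986). Tlr9 had too few UMIs for this measure.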

How the data were processed

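Single-cell RNA sequencing was performed on CD45-enriched CT26 tumor cells of 6 samples (exoASO-STAT6 and exoASO-Scramble, 3 each). The authors deposited raw UMI counts of 20649 genes in 9235 barcodes, with no normalization. The submitters' processing notes name Cell Ranger 1.2, Seurat 3.1.5, R 4.0.1 and mm10, and the chemistry was 10x 3.1. The filter on barcodes is not given in the sources used here, and the largest mitochondrial share in a barcode was 9.99%. Since barcode suffixes matched no sample label, the libraries were pooled and the planned count model of the treatments was not fitted. Barcodes were classed by UMI cutoffs. No doublet caller was run, and barcodes meeting several rules or holding T or NK with macrophage transcripts were left out. Counts were summed per class and expressed as CPM with exact Poisson intervals. Ratios have conditional exact binomial intervals and shares have Clopper-Pearson intervals, after thinning to 3000 UMIs. A limit for 0 is 3 counts. A library was read for a class where at least 10 barcodes and 100000 UMIs were present, and smaller libraries are given with their UMIs. The genes named were the 10 members, Tlr5, Tlr11 and Tlr12, a list of 41 pathway genes and, for each member with at least 100 UMIs, the 3 genes with the most similar pattern over classes. The closest match of 1 member is not reported here. The members and lists were chosen with earlier results of these data known. Alternatives were doubled cutoffs, overlapping classes, other weights, a stricter barcode filter, other thinning depths and each library left out. Scripts were tested on simulated data. Python 3.11.15, numpy 2.4.6, scipy 1.17.1, pandas 2.3.3 and matplotlib 3.10.9 were used, with GENCODE M21 gene models and RefSeq promoters of GRCm38.p6.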

Additional observations from a re-analysis of the deposited data

How the results depend on the processing

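No paired analysis was possible because the barcode suffixes could not be tied to the labels' samples, and the alternatives planned for the treatment comparison were not run for the same reason. Under every alternative run, Tlr7 led in pDC, Tlr3 in type 1 dendritic barcodes, and Tlr1 and Tlr2 in the Ly6c2 state, and the count above lymphocytes was 9 wherever it was computed. The count led by a macrophage state was 7 instead of 3 when classes could overlap and Tlr4, Tlr6, Tlr13 and Unc93b1 changed their leading class. Tlr9 also changed in that setting, from B to pDC, and in some others to the Rsad2 or the Ly6c2 state. Leaving out each library gave 3 to 5, the highest without library 6. The count higher in the C1qa than the Ly6c2 state in every library was 0 instead of 2 with class cutoffs doubled and 0 with state cutoffs doubled, and 2 to 3 with a library left out. With class or state cutoffs doubled, Tlr2 was higher in the C1qa state in 0 of 6 libraries. So was Tlr4 when classes could overlap or the stricter barcode filter was used. The count higher in the Rsad2 state than in both others was 5 instead of 3 with state cutoffs doubled, and 3 to 5 with a library left out, the highest without library 7. The count led by the same class in each library read was 3, and 2 to 4 with a library left out. The log2 ratio of Unc93b1 between the Rsad2 and Ly6c2 states, 0.12, turned to -0.025 with state cutoffs doubled and to -0.015 as a mean over barcodes. The causes were not tested. When barcodes with macrophage UMIs were kept in their classes, an alternative chosen after seeing the data, Tlr7 in pDC was 83.0 CPM, Tlr3 in type 1 dendritic barcodes 73.1 and Tlr4 in the S100a9 class 62.6. Where a class had fewer than 10 barcodes in most libraries, means over libraries gave no value for the counts per library or above lymphocytes, and means over barcodes none for the latter. Of the levels, 108 stayed within the error and 22 moved beyond it, and of the log2 ratios 361 and 27. With other thinning depths 24 shares moved beyond their interval and 6 did not. Depth limits Tlr9, Tlr8 outside macrophages, and any receptor in B barcodes.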

Other observations

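The other Toll-like receptors of the mouse, Tlr5, Tlr11 and Tlr12, had levels of their own. Tlr11, a sensor of microbial profilin that works in endosomes, was found in type 1 dendritic barcodes at 55.7 CPM (38.4 to 78.2), with 1, 6, 10, 9, 4 and 3 UMIs in libraries 3 to 8. The remaining macrophages, next in order, had 1.25 CPM, and 16 of 38 type 1 dendritic barcodes held the transcript without thinning. Tlr12, its partner in profilin sensing, was highest in pDC at 29.3 CPM (15.1 to 51.1), from 12 UMIs of 5 libraries. Type 1 dendritic barcodes followed at 10.1 CPM, and the ratio of 2.89 had an interval of 1.0 to 9.38. Among macrophages, Tlr12 was higher in the C1qa than in the Ly6c2 state in 6 of 6 libraries, at 6.08 against 1.08 CPM. The Ly6c2 level came from 5 UMIs, with 1, 0, 0, 2, 1 and 1 in libraries 3 to 8, so the count of libraries says little. Such an order was found for 18.5% of genes with at least 5 CPM in macrophages, a level that Tlr12 (4.65 CPM) did not reach. Other cutoffs were not tried for this gene. Tlr5, the flagellin receptor, was at 3.44 CPM or less in each class.

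Over all macrophages, library 6 had the highest level of Tlr1 (39.5 CPM), Tlr4 (58.5), Tlr6 (14.3) and Tlr13 (71.5) of the 6 libraries and the lowest of Tlr2 (140) and Tlr3 (10.9). The others ranged from 23.4 to 34.7 CPM for Tlr1, from 34.3 to 47.2 for Tlr4, from 7.29 to 11.6 for Tlr6, from 48.4 to 57.0 for Tlr13, from 165 to 193 for Tlr2 and from 12.5 to 14.1 for Tlr3. Library 6 also had the largest share of Rsad2 barcodes among its macrophages. The treatment of the library is not known, and what moved with it was not tested.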
